A study of Rattus norvegicus with 325 samples.

Results

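The 6 genes described here belong to the growth hormone and Stat5 pathway and were followed in aging rat muscle. They are the receptor gene Ghr, the transcription factor genes Stat5a and Stat5b, the feedback inhibitor genes Cish and Socs2, and the growth factor gene Igf1. They were taken by gene symbol and are 6 of the 17315 distinct symbols in the count files. All 6 were found, and all 6 passed the filter on low counts in each of the 4 muscles.

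Growth hormone is released from the pituitary in pulses, which are pronounced in male rats, and binds its receptor on liver, muscle and fat. The receptor activates the kinase Jak2, which phosphorylates Stat5a and Stat5b, and these move to the nucleus and switch on target genes. Cish and Socs2 are classic targets whose proteins dampen the same receptor, and Igf1 carries part of the growth effect of the hormone, made both in liver and locally in muscle.

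Bulk RNA sequencing covered 4 muscles of male rats of the outbred Sprague Dawley strain, given no treatment beyond aging. These were the breathing muscle diaphragm (83 libraries), the slow soleus (84) and the largely fast tibialis anterior (85) and gastrocnemius (73). Ages ran from 6 to 27 months, with 5 ages between (9, 12, 18, 21, and also 24 months). The libraries fell into 28 groups of 1 muscle and 1 age, with 9 to 13 libraries in a group, which the study's methods count as animals. All tissues of an age were taken on the same day, from the morning into the early afternoon, so age and collection day cannot be told apart. The libraries held 17.6 to 85.3 M counts (M, mega) with a median of 31.9 M. Levels are given as CPM, counts per mega-count of the library after its size was scaled by the TMM method (trimmed mean of M values) within a muscle, and they compare libraries, not genes, since they are not corrected for transcript length. In bulk tissue, fewer cells of a type and less RNA per cell cannot be told apart.

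The Cish promoter is shown here because Cish varied most between libraries of the 6 genes, and because its sequence holds a dense group of the motif that Stat5 binds. The motif searched was TTCNNNGAA, which reads the same on both strands, and no overlap between matches occurred. In the RefSeq promoter table for GRCr8, the stretch chr8:116850719-116850868 on the plus strand, which runs from base -250 to base -101 before the annotated start of Cish, reads as follows, with the 4 matches in capitals.

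Cish promoter: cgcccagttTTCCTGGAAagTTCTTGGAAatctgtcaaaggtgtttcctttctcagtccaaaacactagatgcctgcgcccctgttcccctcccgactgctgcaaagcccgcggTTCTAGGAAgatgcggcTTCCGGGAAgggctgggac

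The matches begin at -241, -230, -136 and -119, so they lie as 2 close pairs. Of the 33469 promoters of 300 bases in the table, 8.87% held at least 1 match and 2 promoters held 4, which is also the highest number. The other promoter with 4 matches belongs to LOC120095689, named after its count was seen. The promoters of Ghr, Igf1, Stat5a and Stat5b held no match in this window, and Socs2 is not analysed here for sequence. A match describes the letters and is not a measured binding site.

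To ask when each gene departed from its level in young adult muscle, limma-voom contrasts set every later age against 6 months. Calls needed a Benjamini-Hochberg adjusted p below 0.05 together with a change of more than 1.5-fold. At 27 months 4 of the 6 genes were called in the tibialis anterior (Cish, Ghr, Socs2 and Stat5b), where 27.6% of all genes tested were called. In the gastrocnemius 3 were called (Cish, Socs2 and Stat5b), against 22.8% of all genes. In the diaphragm 2 were called (Ghr and Igf1), against 7.52%, and in the soleus 0 were called, against 15% of all genes. In the soleus 2 of the 6 had an unadjusted p under 0.05, and Cish was called there when libraries with liver transcripts were handled otherwise, as described for Cish. Each call at 27 months was a fall, while the falls called among all genes made up 4.25% in the diaphragm, 7.76% in the gastrocnemius and 10.4% in the tibialis anterior. The median log2 change of the 6 genes was -0.87 for tibialis anterior, -0.52 for both gastrocnemius and diaphragm, and 0.10 in the soleus, and the median over all genes lay between 0.00 and 0.04.

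**Figure D1:**
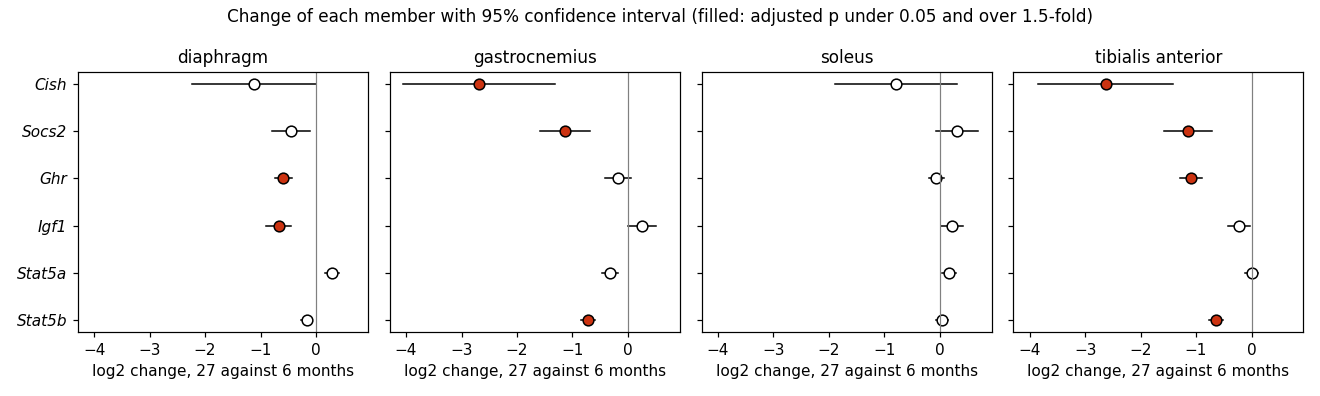
Log2 change of each of the 6 genes from 6 to 27 months in 4 muscles, as points with 95% confidence intervals; filled points passed an adjusted p under 0.05 and a 1.5-fold change. The filled points are 4 for tibialis anterior, 3 for gastrocnemius, 2 for diaphragm and 0 for soleus, all to the left of 0.

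Over 9, 12 and 18 months, 0 of 72 comparisons of a gene with 6 months in a muscle were called in limma-voom, where between 0.00851% and 5.45% of all genes were, the shares at 18 months being 5.45% for tibialis anterior, 4.32% for gastrocnemius, 2.84% for soleus and 2.25% for diaphragm. Of the 72, 17 had an unadjusted p under 0.05 and 8 an adjusted p under 0.05 with a change under 1.5-fold. The 12-month libraries of the diaphragm, soleus and tibialis anterior carry running numbers of another series than those at 6 months. In these muscles that age and any effect of the series cannot be told apart. Without the 6-month gastrocnemius library of replicate 3, in which Cish was low, the Cish change there at 18 months was called (-1.93, adjusted p = 0.0208). Over 21, 24 and 27 months 18 of 72 were called, and all 18 were falls. At 21 months Cish and Socs2 were called in the gastrocnemius (5.81% of all genes called) and in the tibialis anterior (6.47%), while 0 of 6 genes were called in the diaphragm (1.68%) and soleus (2.61%). At 24 months both genes were called again in the gastrocnemius (18.8%) and tibialis anterior (14.5%), and 0 of 6 in the diaphragm (2.68%). In the soleus Socs2 at 24 months was the single call at any age (6.51% of all genes called). It was not called without the libraries over 100 CPM of liver transcripts (-0.64, adjusted p = 0.137), whereas Cish then was, at 24 months (-2.13, adjusted p = 0.016) as at 27.

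Ghr encodes the receptor itself. In the tibialis anterior its level ran from 368 to 455 CPM with a median of 419 in the 12 libraries at 6 months, and from 136 to 385 with a median of 177 in the 12 libraries at 27 months. Of the 12 old libraries 11 lay below every young library. In log2 units Ghr there fell by 1.09 (SE 0.10, adjusted p = 2.18e-16), and at 24 months the change was -0.42 (SE 0.10, adjusted p = 0.00038), under the fold threshold. The exception at 27 months, at 385 CPM, was also the library of that muscle with the highest summed level of 11 liver transcripts (418 CPM, where the median of the muscle was 0.464). Without libraries over 100 CPM of these transcripts Ghr in the tibialis anterior fell by 1.18.

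In the diaphragm Ghr had 334 to 429 CPM with a median of 395 at 6 months and 186 to 360 with a median of 265 at 27 months, and 11 of 12 old libraries lay below every young one. It fell by 0.59 (SE 0.07, adjusted p = 4.77e-10), a value at the edge of the 1.5-fold threshold that 10 other settings placed under it (-0.29 to -0.58), each with an adjusted p under 0.05. The change in the diaphragm was -0.25 at 18 months (SE 0.07, adjusted p = 0.00895) and -0.09 at 24 months (SE 0.07, adjusted p = 0.481). In 1 of the 12 libraries at 18 months, replicate 11, Ghr stood at 7.36 log2 CPM against 8.10 to 8.64 for the others, and without it the change at 18 months was -0.16 (adjusted p = 0.0456). Models of the level on age, compared by the Bayesian information criterion, placed the midpoint of a late logistic fall at 25.0 months in the diaphragm and 25.5 months in the tibialis anterior.

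Ghr gave other values in the remaining muscles. In the gastrocnemius it ran from 163 to 325.5 CPM with a median of 285 at 6 months and from 158 to 294 with a median of 221 at 27 months, a change of -0.18 (SE 0.12, adjusted p = 0.194, 95% interval -0.42 to 0.06). In the soleus it ran from 300.1 to 417 CPM with a median of 363 at 6 months and from 244 to 437 with a median of 351 at 27 months, a change of -0.06 (SE 0.07, adjusted p = 0.473, interval -0.20 to 0.08). The groups overlapped in both muscles. The 27-month change of Ghr in the tibialis anterior was lower than that in the gastrocnemius by 0.92 (SE 0.13, adjusted p = 3.07e-09) and lower than that in the soleus by 1.02 (SE 0.12, adjusted p = 1.87e-13) in a joint fit of all libraries. Against the diaphragm the difference was -0.55 (SE 0.12, adjusted p = 5.11e-05), under 1.5-fold.

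Stat5b and Stat5a encode the closely related factors that the receptor activates. The genes are neighbors with near-identical stretches, so reads could be shared between them and their separate values are uncertain. Stat5b held 189 to 261 CPM with a median of 214 in the 10 gastrocnemius libraries at 6 months and 112 to 144 with a median of 126 in the 11 at 27 months, with no overlap. It fell by 0.72 there (SE 0.06, adjusted p = 1.33e-16). With a library axis as a covariate the change was under 1.5-fold (-0.48, adjusted p = 0.00228). That axis was the first principal component of deviations within ages found in another muscle. Its scores kept differences between ages, so the covariate can take up part of an age change. With it 490 of 11865 genes were called in the gastrocnemius, in place of 2708. In the tibialis anterior Stat5b held 206 to 253 CPM with a median of 228 at 6 months and 121 to 195 with a median of 142 at 27 months. There was again no overlap, and Stat5b fell by 0.65 (SE 0.06, adjusted p = 8.01e-16).

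Stat5b was lower in the gastrocnemius from early ages, at -0.31 at 12 months (SE 0.06, adjusted p = 0.000944) and -0.48 at 24 months (SE 0.06, adjusted p = 2.61e-09), both under 1.5-fold.

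In the other muscles Stat5b was not called. Its change was -0.17 in the diaphragm (SE 0.05, adjusted p = 0.00474), where the libraries ran from 161 to 198 CPM at 6 months and from 129 to 200.1 at 27 months and overlapped. In the soleus it was 0.04 (SE 0.05, adjusted p = 0.61, interval -0.07 to 0.14), with 139 to 169 CPM at 6 months and 144 to 191 at 27 months. The Stat5b change of the gastrocnemius was lower than that of the diaphragm by 0.60 (adjusted p = 1.72e-10), and the change of the soleus was above that of the gastrocnemius by 0.75 (adjusted p = 1.64e-14). The change of the tibialis anterior was lower than that of the soleus by 0.67 (adjusted p = 3.91e-13). Under scaling by total counts, which moved the 27-month median over all genes from 0.04 to 0.32 in the gastrocnemius and from 0.02 to 0.34 in the tibialis anterior, the falls of Stat5b were 0.44 in the gastrocnemius and 0.33 in the tibialis anterior, both under 1.5-fold with adjusted p of 5.7e-10 and 1.49e-09. With the macrophage markers as a covariate the fall in the tibialis anterior was 0.44 (adjusted p = 5.21e-06), also under 1.5-fold. With that covariate 1458 of 11754 genes were called there, in place of 3245. It too kept differences between ages, so it can take up part of an age change.

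Stat5a was called in 0 of 24 comparisons with 6 months in limma-voom, and 10 of them had an unadjusted p under 0.05. Its 27-month change was 0.29 in the diaphragm (SE 0.06, adjusted p = 7.54e-05) against -0.32 in the gastrocnemius (SE 0.07, adjusted p = 8.47e-05). Soleus and tibialis anterior had 0.16 (SE 0.06, adjusted p = 0.0243) and 0.00 (SE 0.06, adjusted p = 0.999). The values of the diaphragm and gastrocnemius have opposite signs and each is under 1.5-fold. Their difference was itself called, at -0.66 for the gastrocnemius minus the diaphragm (SE 0.09, adjusted p = 2.55e-10), and was -0.37, under 1.5-fold, with total-count scaling. In the diaphragm the 12 libraries at 27 months ran from 24.8 to 37.6 CPM and 8 of them lay above every 6-month library, while in the gastrocnemius the 11 old libraries ran from 25.1 to 33.7 CPM and 6 lay below every young one.

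Cish encodes a protein that docks on the activated receptor and blocks Stat5. In the tibialis anterior its level ran from 5.73 to 109 CPM with a median of 48.7 at 6 months and from 2.09 to 31.7 with a median of 8.04 at 27 months. All 12 old libraries lay below the 6-month median and 5 lay below every young library. In log2 units Cish there fell by 2.63, to 0.161 of its 6-month level (SE 0.62, adjusted p = 0.000102), after falls of 2.11 at 21 months (adjusted p = 0.00242) and 1.98 at 24 months (adjusted p = 0.00132).

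In the gastrocnemius Cish ran from 2.77 to 126 CPM with a median of 49.0 in the 10 libraries at 6 months and from 1.39 to 41.7 with a median of 6.81 in the 11 at 27 months. All 11 old libraries lay below the 6-month median, yet the groups overlapped. The library of replicate 3 at 6 months stood at 1.47 log2 CPM while the next lowest young library stood at 4.26. Cish fell by 2.68 (SE 0.69, adjusted p = 0.000594), with falls of 2.31 at 21 months (adjusted p = 0.0139) and 2.70 at 24 months (adjusted p = 0.00198). Without the library of replicate 3 the fall at 27 months was 3.13 (SE 0.66, adjusted p = 3.52e-05). With the library-axis covariate, whose scores kept differences between ages, the change was -1.91 and the call was lost (adjusted p = 0.486).

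The same direction of values appeared in the diaphragm and soleus without a call at any single age. Over all ages Cish was classed as a linear fall in both, with a criterion gain over a flat line of 8.24 in the diaphragm and 6.22 in the soleus. The gain needed was 6. In the diaphragm Cish ran from 8.18 to 117 CPM with a median of 41.4 at 6 months and from 5.29 to 79.8 with a median of 13.3 at 27 months, a change of -1.12 (SE 0.56, adjusted p = 0.097, interval -2.23 to 0.00). In the soleus it ran from 1.22 to 35.8 CPM with a median of 16.5 at 6 months and from 1.70 to 27.8 with a median of 6.46 at 27 months, a change of -0.79 (SE 0.55, adjusted p = 0.226, interval -1.89 to 0.31). At 21 months the 12 soleus libraries ran from 1.33 to 7.55 CPM, all below the 6-month median, with a change of -1.77 (SE 0.71, adjusted p = 0.0843). The difference in the Cish change between muscles was called in none of the 6 pairs in limma-voom (0 of 6, also 0 of 6 at an unadjusted p under 0.05, with adjusted p from 0.103 to 0.99), and its intervals were wide, for example -3.17 to 0.04 for the tibialis anterior minus the diaphragm. The joint fit behind these values took libraries as independent. Any sharing of rats between muscles was not used and could change the intervals.

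The soleus value depended on which libraries were used. Liver transcripts summed to 8.55 to 2030 CPM with a median of 137 in the 6-month soleus and to 1.32 to 2633 with a median of 2.50 in the 27-month soleus. Without the soleus libraries over 100 CPM of them, which were 7 of 12 at 6 months and 2 of 12 at 27 months, Cish fell by 1.73 (SE 0.60, adjusted p = 0.0177) and was called. With the liver transcripts as a covariate, which kept differences between ages, it fell by 1.43 (adjusted p = 0.0353).

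**Figure D2:**
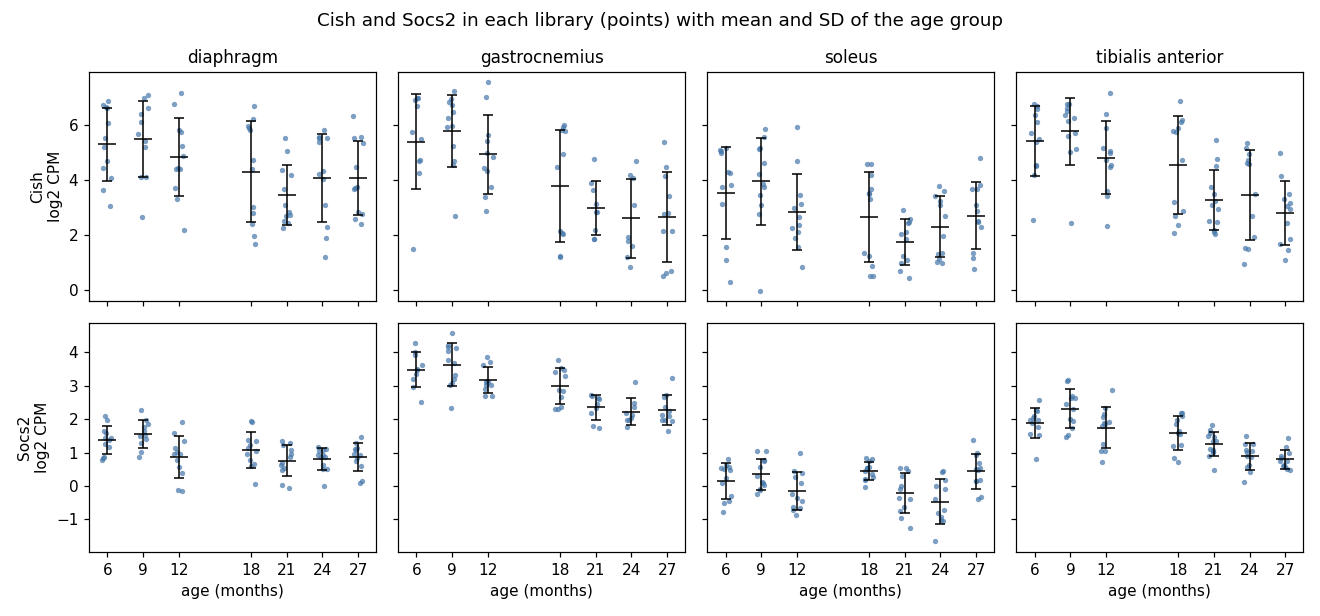
Cish and Socs2 in each library, as log2 CPM against age in months in 4 muscles; points are libraries, and bars give the mean and SD of an age group. Cish medians in the tibialis anterior were 48.7 CPM at 6 months and 8.04 at 27 months, and the spread within each age is far wider for Cish than for Socs2.

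Socs2 encodes a second inhibitor of the receptor, and mice without it grow large. In the gastrocnemius it ran from 5.74 to 19.5 CPM with a median of 11.2 at 6 months and from 3.15 to 9.40 with a median of 4.34 at 27 months, and 8 of 11 old libraries lay below every young one. It fell by 1.13 (SE 0.22, adjusted p = 1.45e-05) after falls of 1.14 at 21 months (adjusted p = 0.000246) and 1.20 at 24 months (adjusted p = 3.92e-05). In the tibialis anterior it ran from 1.74 to 5.96 CPM with a median of 3.91 at 6 months and from 1.40 to 2.72 with a median of 1.67 at 27 months, with 7 of 12 old libraries below every young one. The fall was 1.14 at 27 months (SE 0.21, adjusted p = 2.08e-06), 1.04 at 24 months (adjusted p = 9.64e-06) and 0.67 at 21 months (adjusted p = 0.00473).

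Socs2 values in the diaphragm and soleus differed from these. In the diaphragm the level ran from 1.72 to 4.23 CPM at 6 months and from 1.07 to 2.76 at 27 months, a change of -0.45 (SE 0.17, adjusted p = 0.0263) that is under 1.5-fold. Over all ages the level there was classed as a linear fall (criterion gain of 10.9 over a flat line). In the soleus it ran from 0.577 to 1.74 CPM at 6 months and from 0.770 to 2.60 at 27 months, and 3 of 12 old libraries lay above every young one. The soleus change was 0.31 at 27 months (SE 0.20, adjusted p = 0.172), while at 24 months Socs2 fell by 0.61 (SE 0.24, adjusted p = 0.0392). The soleus counts of Socs2 were few, 8 to 98 per library.

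The difference between muscles was itself called for Socs2. The 27-month change in the soleus was above that in the gastrocnemius by 1.42 (SE 0.35, adjusted p = 0.00046), and that of the tibialis anterior was lower than that of the soleus by 1.45 (SE 0.39, adjusted p = 0.00129). The gastrocnemius was lower than the diaphragm by 0.71 (SE 0.29, adjusted p = 0.0272), a call lost with total-count scaling (-0.43, adjusted p = 0.197). With the library-axis covariate the Socs2 change in the gastrocnemius was -0.70 and its call was lost (adjusted p = 0.397).

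Igf1 encodes the growth factor that muscle makes in part under growth hormone. In the diaphragm it ran from 30.9 to 55.8 CPM with a median of 45.1 at 6 months and from 22.2 to 37.1 with a median of 28.1 at 27 months. All 12 old libraries lay below the 6-month median and 9 lay below every young library. Igf1 there fell by 0.67 (SE 0.12, adjusted p = 1.42e-06), and no earlier age was called, though the change at 18 months was -0.30 (adjusted p = 0.0419) with replicate 11 and -0.18 (adjusted p = 0.209) without it. With the library axis as a covariate the change at 27 months was under 1.5-fold (-0.38, adjusted p = 0.00406).

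In the limb muscles Igf1 was not called at any age, although the gastrocnemius had -0.45 at 21 months (adjusted p = 0.0118). Its 27-month values were 17.5 to 31.0 CPM against 14.2 to 27.1 at 6 months in the gastrocnemius (change 0.25, SE 0.12, adjusted p = 0.068). In the soleus they were 24.6 to 56.1 CPM against 23.4 to 41.1 (change 0.22, SE 0.10, adjusted p = 0.0478). In the tibialis anterior they were 10.6 to 18.0 CPM against 11.3 to 18.9 (change -0.23, SE 0.10, adjusted p = 0.0281). The change was higher in the gastrocnemius than in the diaphragm by 0.88 (SE 0.15, adjusted p = 1.26e-07) and higher in the soleus than in the diaphragm by 0.84 (SE 0.14, adjusted p = 1.83e-07).

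Fibroblast markers were set beside the Igf1 change in each muscle. Of 6 fibroblast and fibro-adipogenic markers, 4 fell in the diaphragm (Col1a1, Col1a2, Col3a1 and Lum), where 4.25% of all genes fell. The summed level of the 6 ran there from 2111 to 3648 CPM at 6 months and from 1035 to 1929 at 27 months. Its median went from 2765.5 to 1391.6 CPM in the gastrocnemius and from 4306 to 3118 in the soleus, where the Igf1 changes were 0.25 and 0.22. In the tibialis anterior it went from 1184 to 999.8 CPM, with an Igf1 change of -0.23. The part of these markers in the Igf1 result was not tested. With macrophage markers as a covariate the Igf1 change in the tibialis anterior was -0.66 (adjusted p = 6.43e-06), past the call threshold. That covariate kept differences between ages, so it can take up or shift part of an age change.

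**Figure D3:**
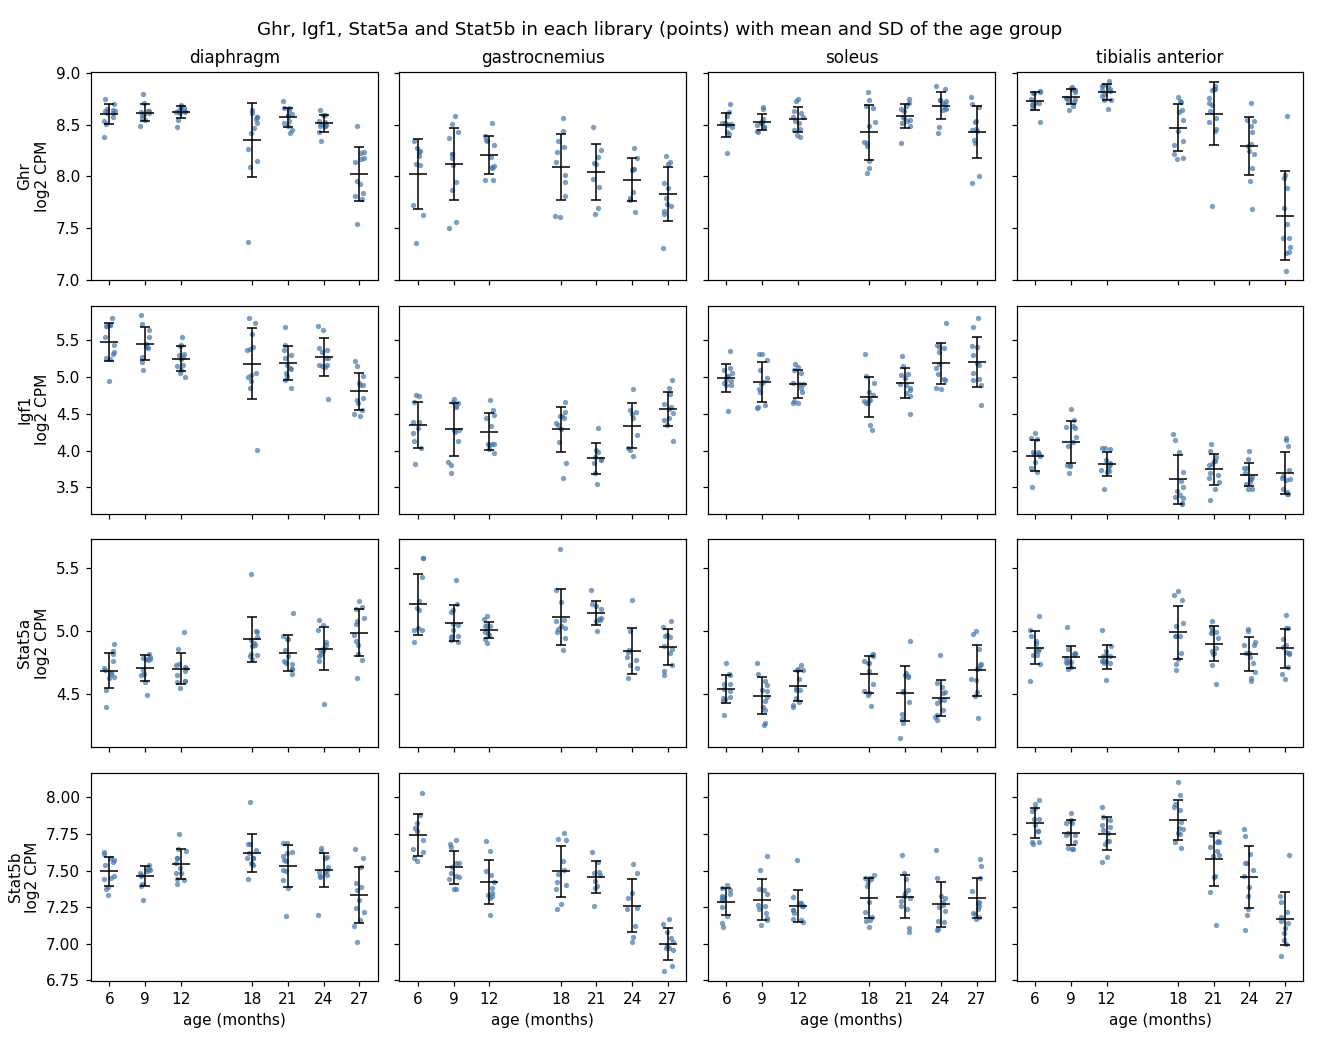
Ghr, Igf1, Stat5a and Stat5b in each library, as log2 CPM against age in months in 4 muscles; points are libraries, and bars give the mean and SD of an age group. Ghr in the tibialis anterior had medians of 419 CPM at 6 months, 316 at 24 months and 177 at 27 months, while Stat5b in the soleus had 159 and 154 CPM at 6 and 27 months.

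The muscles were also compared at 6 months in the joint fit. Over the 6 muscle pairs, 19 of 36 comparisons of a gene were called. By pair these were 3 of 6 genes between the gastrocnemius and diaphragm (37.3% of all genes called), 2 between the soleus and diaphragm (23.9%), 3 between the tibialis anterior and diaphragm (35.1%), 4 between the soleus and gastrocnemius (45.4%), 2 between the tibialis anterior and gastrocnemius (17.3%) and 5 between the tibialis anterior and soleus (42.9%). The 11 called differences in the 6-to-27-month change, given by gene above, divide by pair as 4 of 6 between the gastrocnemius and diaphragm (21.6% of all genes called), 1 between the soleus and diaphragm (11.9%), 0 between the tibialis anterior and diaphragm (20.3%), 2 between the soleus and gastrocnemius (14.5%), 1 between the tibialis anterior and gastrocnemius (7.32%) and 3 between the tibialis anterior and soleus (15.8%). All gastrocnemius libraries carry running numbers of a series of their own, so this muscle and any effect of that series cannot be told apart.

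Socs2 was ordered gastrocnemius, tibialis anterior, diaphragm and soleus at 6 months, and each neighbor in that order differed. It was higher in the gastrocnemius than in the tibialis anterior by 1.52 log2 units (SE 0.16), higher in the tibialis anterior than in the diaphragm by 0.94 (SE 0.21), and lower in the soleus than in the diaphragm by 1.18 (SE 0.29), with adjusted p of 3.57e-17, 1.86e-05 and 0.00015. With total-count scaling the tibialis anterior exceeded the diaphragm by 0.50, under 1.5-fold. Cish was lowest in the soleus, by 1.71 against the diaphragm (SE 0.57, adjusted p = 0.00633) and by 2.14 against the gastrocnemius (SE 0.59, adjusted p = 0.000546), and it was higher in the tibialis anterior than in the soleus by 2.23 (SE 0.57, adjusted p = 0.000188). Among the other 3 muscles no Cish difference passed the spread between libraries (adjusted p from 0.343 to 0.91), with intervals as wide as -0.59 to 1.45 for the gastrocnemius minus the diaphragm.

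Igf1 was highest in the diaphragm. It was lower in the gastrocnemius by 0.82 (SE 0.11, adjusted p = 2.25e-12) and lower in the tibialis anterior by 1.17 (SE 0.11, adjusted p = 1.14e-22), while in the soleus the difference of -0.47 (SE 0.10, adjusted p = 1.24e-05) is under 1.5-fold. Ghr was highest in the tibialis anterior, by 0.74 against the gastrocnemius (SE 0.09, adjusted p = 2.36e-13), and by 0.48 and 0.58 against the diaphragm and soleus, both under 1.5-fold. Stat5b was higher in the tibialis anterior than in the soleus by 0.89 (SE 0.06, adjusted p = 2.59e-38), and Stat5a was higher in the gastrocnemius than in the soleus by 0.98 (SE 0.07, adjusted p = 1.68e-35). With total-count scaling these were 0.48 and 0.58, both under 1.5-fold.

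The genes differed in how much libraries of 1 muscle and 1 age varied. The pooled SD of Cish within ages was 1.55 log2 units for gastrocnemius, 1.45 for diaphragm, 1.38 for soleus and 1.37 for tibialis anterior, where the median gene had 0.22, 0.19, 0.21 and 0.19. Among genes with a mean log2 CPM over 0, Cish ranked 5 of 10106 in the tibialis anterior, 6 of 10292 in the gastrocnemius, 13 of 10650 in the diaphragm and 25 of 10558 in the soleus. Socs2 had SDs of 0.47 to 0.53, Igf1 of 0.24 to 0.29, Ghr of 0.17 to 0.28, and Stat5a and Stat5b of 0.13 to 0.17. Stat5b varied less than the median gene in each muscle. Cish varied more than 99.7% of all genes tested in the gastrocnemius, 99.3% in the tibialis anterior, 99.2% in the diaphragm and 95.8% in the soleus.

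Cish and Socs2 varied together between libraries of an age. Over deviations from the age mean, Pearson's r was 0.54 in the 83 diaphragm libraries, 0.58 in the 73 of the gastrocnemius and 0.57 in the 85 of the tibialis anterior, with Spearman's rho of 0.55, 0.55 and 0.54. Each had a permutation p of 1e-05 for both measures, the smallest that 100000 resamples within ages can give, and adjusted p of 0.0001 for r and 0.00015 for rho over 60 relations. Without the 2 libraries farthest from the median of Cish, r was 0.54, 0.50 and 0.53, and within single ages it was positive in 7 of 7 ages in each of the 3 muscles (0.18 to 0.90 in the diaphragm, 0.40 to 0.83 in the gastrocnemius and 0.30 to 0.76 in the tibialis anterior). In the 84 soleus libraries r was 0.23 and rho 0.17 (permutation p = 0.0293 and 0.108, adjusted p = 0.0983 and 0.27), positive in 5 of 7 ages.

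**Figure D4:**
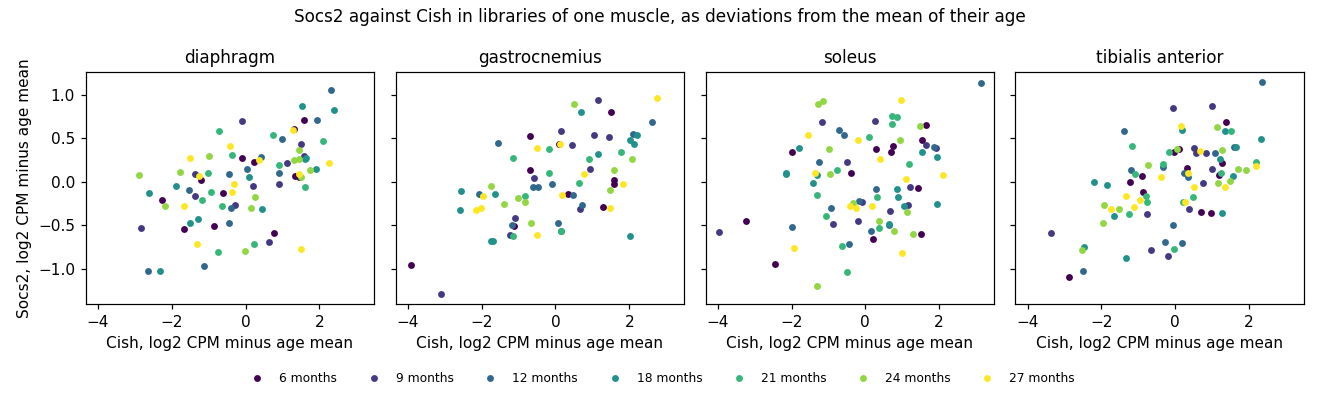
Socs2 against Cish in each library of 4 muscles, both as log2 CPM minus the mean of the age group, colored by age. The points rise together in the diaphragm, gastrocnemius and tibialis anterior (r of 0.54, 0.58 and 0.57) and less so in the soleus (r of 0.23).

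Of the 60 relations, 15 had an adjusted p under 0.05 for r. Stat5a with Stat5b, the pair whose reads could be shared, passed in all 4 muscles, with r of 0.66 and rho of 0.55 for diaphragm, 0.57 and 0.52 for gastrocnemius, 0.50 and 0.42 for tibialis anterior (permutation p of 1e-05 for each r) and 0.39 and 0.34 for soleus (permutation p = 0.0007 for r). With total-count scaling it did not pass in the tibialis anterior (r of 0.29, adjusted p = 0.0655). Beside these and the relations of Cish with Socs2, Ghr with Igf1 and Socs2 with Igf1, the remaining 6 that passed joined Igf1 or Ghr with Stat5a or Stat5b, and each of the 6 lost an adjusted p under 0.05 with total-count scaling (adjusted p from 0.0655 to 0.946). Ghr and Igf1 had r of 0.48 and rho of 0.46 in the gastrocnemius (permutation p = 6e-05 and 0.00015, adjusted p = 0.000514 and 0.0015, r of 0.44 without the 2 farthest libraries). Socs2 and Igf1 had r of 0.42 and rho of 0.40 in the tibialis anterior (permutation p = 0.00013 and 0.00037, adjusted p = 0.000975 and 0.00278, r of 0.41 without the 2 farthest). Cish and Igf1 passed in none of the 4 muscles.

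Cish was also compared between muscles over libraries that share an age and a replicate number. This comparison was chosen after the data were seen, and the labels do not say that a number marks 1 rat. Over 83 libraries of the diaphragm and tibialis anterior r was 0.75 and rho 0.71, over 83 of the diaphragm and soleus 0.61 and 0.61, and over 84 of the soleus and tibialis anterior 0.64 and 0.63. Each had a permutation p of 1e-05, the smallest possible, and an adjusted p of 0.00012 over 36 relations. Without the 2 libraries farthest from the median r was 0.72, 0.57 and 0.58.

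The r over shared numbers was not the same at each age. For the diaphragm and tibialis anterior r was 0.94 at 6 months, 0.67 at 9, 0.93 at 12, 0.97 at 18, 0.87 at 24 and 0.73 at 27 months, but -0.52 at 21 months. For the soleus and tibialis anterior r was 0.86 to 0.97 at 6, 9, 18 and 24 months and 0.67 at 27 months, but -0.24 at 12 and -0.07 at 21 months. For the diaphragm and soleus it was 0.65 to 0.93 at 6, 9, 18, 24 and 27 months, but -0.38 at 12 and 0.02 at 21 months. The 12-month libraries of these 3 muscles and 1 library of each at 21 months carry running numbers of another series than the rest. At 21 months that library is replicate 11 in the diaphragm and soleus but replicate 12 in the tibialis anterior. The tibialis anterior has 13 libraries at that age and the diaphragm 12, so its numbers may be shifted against the others. A different relation at 21 months and unmatched numbers were not told apart here, since r with shifted numbers was not tested.

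In the gastrocnemius no relation of this kind passed. Its groups held 9 to 12 libraries, numbered from 0 without gaps, so a number need not mark the same rat as in another muscle. An absent relation and unmatched numbers cannot be told apart. The r of the gastrocnemius with the diaphragm was 0.21 and rho 0.26 over 72 libraries (permutation p = 0.101 and 0.0477, adjusted p = 0.302 and 0.172). With the soleus r was 0.19 and rho 0.22 over 73 libraries (permutation p = 0.143 and 0.082, adjusted p = 0.346 and 0.246), and with the tibialis anterior r was 0.24 and rho 0.28 over 73 libraries (permutation p = 0.0671 and 0.0341, adjusted p = 0.253 and 0.136). Of the other 5 genes, 2 passed in 1 pair each for r. Socs2 passed between the diaphragm and tibialis anterior (r of 0.37, permutation p = 0.00155, adjusted p = 0.0112), where rho of 0.29 did not (adjusted p = 0.093), and Igf1 between the soleus and tibialis anterior (r of 0.41 and rho of 0.36, permutation p = 0.00034 for r, adjusted p = 0.00306 and 0.0133). Ghr, Stat5a and Stat5b passed in none of the 6 pairs.

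**Figure D5:**
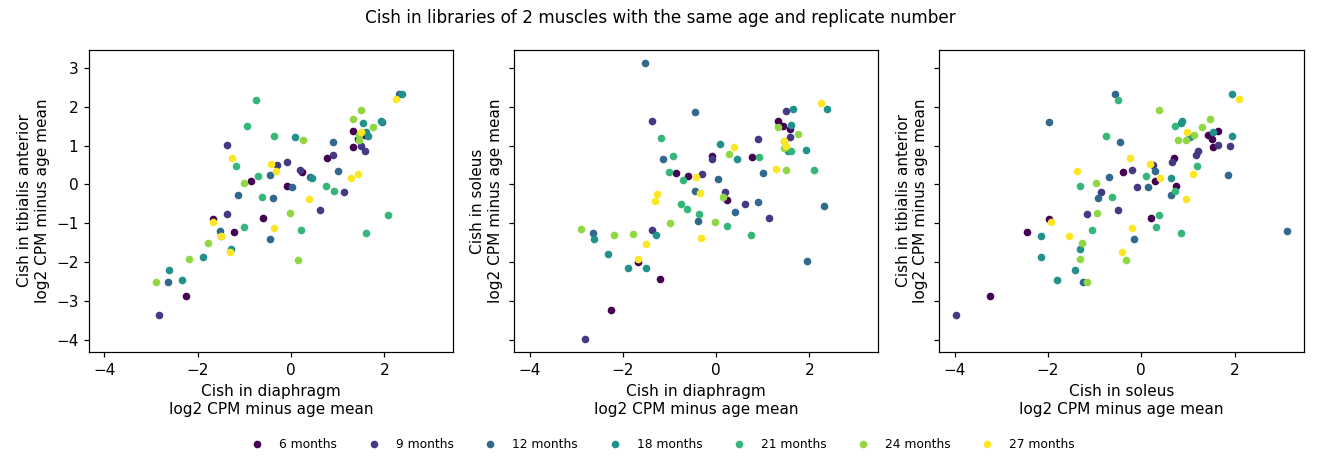
Cish in libraries of 2 muscles that share an age and a replicate number, as log2 CPM minus the age mean, colored by age, for 3 muscle pairs. The points follow a diagonal (r of 0.75, 0.61 and 0.64 from left to right), while r within single ages was below 0 for the diaphragm and tibialis anterior at 21 months (-0.52) and for the diaphragm and soleus at 12 months (-0.38). At 21 months the numbers of the tibialis anterior may be shifted against those of the diaphragm.

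For each gene the most similar genes were listed, with the 6 genes themselves left out, as a description over points that share libraries, scaling and depth. Over deviations from the group mean in all libraries, Cish was most like Ier3 (r of 0.65), an early response gene, and Irs1 (0.55), an adaptor of the insulin and Igf1 receptors, was also among its 3 nearest genes. Over the means of the 28 groups it was most like Nfil3 (0.91), a transcription factor gene, Gja4 (0.89), a gap junction gene, and Mlf1 (0.88). Ghr was most like Sgcb, Oxr1 and Phf20l1 over these deviations (each r of 0.88) and Qser1, Mospd1 and Phf20l1 over the group means (0.95, 0.94 and 0.93). Socs2 reached 0.98, 0.97 and 0.97 over group means with Phpt1, Mrps33 and Cox7a2, but at most 0.47 over deviations, with RGD1307461, followed by Lzts2 and Slc25a30 (0.43 and 0.41).

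The remaining genes had these neighbors. Igf1 was most like Gria3, Ccdc80 and Rarres2 over group means (0.96, 0.94 and 0.94) and Cald1, Pros1 and Cd48 over deviations (0.61, 0.60 and 0.60). Stat5b was most like Nek9, Slc2a8 and Polm over group means (0.97, 0.97 and 0.96) and Phc1, Dcaf5 and Eepd1 over deviations (0.64, 0.64 and 0.63). Stat5a was most like Cln3, Gpank1 and Vps28 over group means (0.99, 0.98 and 0.98) and Ppapdc3, Sema4d and March2 over deviations (0.57, 0.56 and 0.56).

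Around the 6 genes, 5 lists of the wider pathway were counted at 27 months, against the shares of all genes. Of all genes 17.2% rose and 10.4% fell in the tibialis anterior, and 15.1% rose and 7.76% fell in the gastrocnemius. In the soleus 9.21% rose and 5.78% fell, and in the diaphragm 3.27% rose and 4.25% fell. Of 22 genes tested for kinases, phosphatases, adaptors and Socs proteins at the receptor, 5 rose and 5 fell in the tibialis anterior, 1 rose and 2 fell in the gastrocnemius, 4 rose and 0 fell in the soleus, and 1 rose and 1 fell in the diaphragm. The list's median change was between -0.10 and 0.03. Irs1, the insulin receptor substrate, fell by 0.88 in the diaphragm (adjusted p = 1.66e-12), by 1.03 in the gastrocnemius (adjusted p = 2.95e-10) and by 1.67 in the tibialis anterior (adjusted p = 2.42e-21), with a value of -0.16 in the soleus. Grb10, an adaptor that restrains insulin and Igf1 signaling, fell by 0.94 in the tibialis anterior and 0.62 in the gastrocnemius. Sh2b2, a Jak2-binding adaptor, rose by 1.92 in the tibialis anterior, 1.17 in the soleus and 1.11 in the diaphragm, and Ptpn6, a phosphatase of blood cells, rose by 1.12, 0.78 and 0.72 in the tibialis anterior, gastrocnemius and soleus.

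Of 15 genes tested among those known to be regulated by Stat5, 6 rose and 2 fell in the tibialis anterior and likewise 6 and 2 in the gastrocnemius, 4 rose in the soleus, and 0 were called in the diaphragm. The medians were 0.30, 0.21, 0.40 and 0.20 in that order. Myc rose by 2.12, 2.14 and 1.09 in tibialis anterior, gastrocnemius and soleus, Id2 by 1.27, 1.27 and 0.74, and the acute-phase gene Serpina3n by 1.26, 1.00 and 0.68. Igfals, which stabilizes Igf1 in blood, fell by 1.52 in the tibialis anterior and 1.38 in the gastrocnemius, and it is counted again in the list of Igf1 carriers.

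Of 5 other Stat genes, Stat3 rose by 0.86 and Stat4 by 1.63 in the tibialis anterior, Stat4 rose by 1.78 in the gastrocnemius, and 0 were called in the soleus and diaphragm. Of the other receptors that use Jak2 or Stat5, 4 of 8 tested rose in the tibialis anterior, 2 of 8 rose and 1 fell in the gastrocnemius, 1 of 8 rose in the soleus, and 1 of 9 rose in the diaphragm. Il2rb, a receptor chain of lymphocytes, rose in all 4 muscles, by 1.87, 1.62, 1.70 and 0.92 in that order. Csf2ra rose by 1.22 in the tibialis anterior and 0.67 in the gastrocnemius, Csf2rb rose by 0.76 in the tibialis anterior, and the prolactin receptor gene Prlr fell by 0.78 in the gastrocnemius.

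Of 9 genes for the Igf1 receptor and for proteins that carry Igf1 or free it, 2 rose and 2 fell in the tibialis anterior, 1 rose and 2 fell in the gastrocnemius, 2 rose in the soleus and 0 were called in the diaphragm. Igfbp5, a binding protein made by muscle fibers, rose by 1.64, 1.04 and 1.58 in the tibialis anterior, gastrocnemius and soleus. Igf1r rose by 0.69 in the tibialis anterior and had values of 0.57 in the soleus and 0.49 in the gastrocnemius under the fold threshold. Stc2, an inhibitor of the protease that frees Igf1, fell by 0.76 in the tibialis anterior and 0.97 in the gastrocnemius.

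Markers of other cells were counted at 27 months as well, against the same shares of all genes. Of 10 macrophage markers, 9 rose in the tibialis anterior and in the gastrocnemius alike, 2 in the soleus and 0 in the diaphragm, and their summed level went from 69.6 to 114 CPM at 6 months to 142 to 308 at 27 months in the tibialis anterior and from 152 to 242 CPM to 262 to 459 in the gastrocnemius. Of 6 adipocyte markers 4 rose in each limb muscle, while 1 fell in the diaphragm. Of the T cell markers tested, 4 of 4 rose in the tibialis anterior, 3 of 4 in the gastrocnemius and 2 of 7 in the diaphragm, while 2 of 5 rose and 1 fell in the soleus. Of the liver transcripts 4 of 10 tested fell in the soleus and 0 were called in the other muscles. Fibroblast markers fell in number 2 of 6 in the gastrocnemius and soleus and 0 in the tibialis anterior. Kdr was the 1 endothelial marker of 5 that fell in each limb muscle. Of 5 Schwann cell markers 1 rose and 2 fell in the gastrocnemius and 1 rose in the tibialis anterior, and 0 of 3 red cell markers were called.

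Fiber markers were checked against the muscle labels at 6 months. The summed level of 5 slow fiber markers had a median of 59923 CPM in the soleus, the slow muscle, and 2474 in the tibialis anterior, while 5 fast fiber markers ran from 32.4 to 612 CPM in the soleus. At 27 months 5 of 5 fast markers rose in the soleus, 1 rose in the diaphragm, and 2 fell in the gastrocnemius and 1 in the tibialis anterior, where 2 slow markers fell too. Of 4 general muscle fiber markers tested, Ckm fell in the gastrocnemius and tibialis anterior. No marker in the files was at 0 counts in all libraries of both 6 and 27 months of a muscle, but 5 of 11 liver transcripts were at 0 in all 6-month libraries of the tibialis anterior. The part of these cells in the results of the 6 genes was not tested. The macrophage and liver covariates kept differences between ages, so they can take up part of an age change and cannot separate the 2.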

How the data were processed

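The authors removed ribosomal RNA, made strand-specific paired-end libraries from each muscle, quantified reads in ArrayStudio, its version not given in the sources used here, with a rat genome older than GRCr8 and an in-house gene model built from RefSeq, and deposited raw counts per gene for each library. The deposited counts were used as they stand, and every line carried a gene name.

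Low counts were removed by filterByExpr within age groups (at least 10 counts, 15 in total), and the rest were scaled by TMM in edgeR 4.0.16 and fitted with limma-voom (limma 3.58.1, R 4.3.3), 1 fit per muscle with all 7 ages, and 1 joint fit of all libraries for differences between muscles. P-values were Benjamini-Hochberg adjusted over all genes tested, two-sided, and intervals are 95%. P-values measure the spread between libraries, since the labels do not name the animals. Log2 CPM used a prior count of 0.5. Correlations used deviations from the age mean and 100000 permutations within ages, two-sided. Trends needed a Bayesian information criterion gain of 6 over a flat line, and of 2 for a logistic over a linear form. No pair of libraries of a group agreed within sampling noise.

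The named genes were the 6 genes themselves, up to 4 examples of each of 5 pathway lists (those called in most muscles at 27 months, then by mean change), 3 nearest genes of each of the 6 by Pearson's r (1 of them is not reported here), and marker lists of other cells. The genes and lists were chosen with earlier results of these data known. Alternatives covered other scalings, no filter, edgeR's quasi-likelihood test, DESeq2 1.42.0, quality weights, a replicate block, covariates for a library axis (the first principal component of deviations within ages in another muscle), macrophage markers and liver transcripts, and other thresholds. In these fits the library-axis scores and the mean levels of macrophage and liver markers kept differences between ages. Each of these covariates can therefore take up part of an age change. Leaving out libraries with liver transcripts over 100 CPM, gastrocnemius replicate 3 at 6 months or diaphragm replicate 11 at 18 months was chosen after the data were seen. The scripts were tested on simulated data. Promoter sequence came from RefSeq (GRCr8), where 5 of the 6 genes were matched.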

Additional observations from a re-analysis of the deposited data

Results flagged for a closer look

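Cish in the gastrocnemius library of replicate 3 at 6 months stood apart, at 1.469 log2 CPM against 4.26 for the nearest library. It was the 1 of 36 tails past Dixon's critical value in 18 combinations of a gene and a group of up to 10 libraries, and chance gives about 1 in 20 groups. Without it the fall of Cish at 27 months was 3.13 in place of 2.68 on the log2 scale.

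Of 36 differences in the 6-to-27-month change between muscles tested in the joint limma fit, 11 passed the call. Against the diaphragm, the gastrocnemius change was higher for Igf1 by 0.878 and differed by -0.714 for Socs2, -0.656 for Stat5a and -0.603 for Stat5b, and the soleus change was higher for Igf1 by 0.84. Against the gastrocnemius, the soleus change was higher for Socs2 by 1.42 and for Stat5b by 0.747, and the tibialis anterior change of Ghr differed by -0.917. Against the soleus, the tibialis anterior change differed by -1.025 for Ghr, -1.448 for Socs2 and -0.67 for Stat5b. Every contrast with the gastrocnemius is also a contrast with its own number series, and these cannot be told apart.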

How the results depend on the processing

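No change called at 27 months, called difference between muscles or correlation that passed changed direction under an alternative run on it. Some values that were not called did, among them the soleus Cish change at 9 months (0.40, but -0.52 without libraries high in liver transcripts). Relations of Ghr with Stat5a also turned from r of -0.25 to 0.42 in the diaphragm after the library axis and from 0.13 to -0.35 in the tibialis anterior with total-count scaling. In the diaphragm 2 genes were called at 27 months, but 1 with RLE size factors, total-count scaling, no count filter, edgeR, DESeq2, the macrophage covariate, without the third number series, without libraries high in liver transcripts or without 18-month replicate 11, 0 with the library axis or a 2-fold threshold, and 5 with no fold threshold. Over all ages its count of 2 became 1 with RLE, total-count scaling, no filter or without the third series, 4 with quality weights, 0 with the library axis and 5 with no fold threshold. In the gastrocnemius 3 became 0 with the library axis at 27 months, and 5 over all ages with no fold threshold. With the library axis the 27-month calls over all genes also fell, from 2708 to 490 of 11865 in the gastrocnemius. In the diaphragm they fell from 905 to 630 of 12035. The counts at 27 months of 3 in the gastrocnemius and 4 in the tibialis anterior became 2 and 3 with total-count scaling, Bonferroni adjustment or a 2-fold threshold. With total-count scaling the calls over all genes rose in these muscles, from 2708 to 3632 and from 3245 to 4065. In the soleus 0 at 27 months became 1 with the liver covariate or without libraries high in liver transcripts, and 2 with no fold threshold, and 1 over all ages became 0 with total-count scaling, the library axis, the macrophage covariate or Bonferroni adjustment and 4 with no fold threshold. With no fold threshold 21 in place of 11 changes differed between muscles, and 29 in place of 19 levels at 6 months. With total-count scaling 9 in place of 15 correlations passed. Cish passed Bonferroni adjustment in no muscle at 27 months, with 0.592 in the tibialis anterior and 1 in the others.

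With the replicate block the soleus count over all ages was 2 in place of 1, and no count at 27 months changed. Within a muscle this block joined equal numbers of different ages, which are different rats, so it could not test pairing by animal. Between ages the mean same-number r of deviations was 0.009 to 0.031 by muscle. The labels do not tie the replicate numbers to animals. Every same-number r of deviations was over 0.1 in 3 of 42 combinations of 2 muscles and an age. Over 468 same-number pairs the mean r was 0.127, the lowest was -0.626, and 170 matched their own number best, which is a hint from the data and not from the design. Counting limits Socs2 in the soleus most, at 8 to 98 counts a library. Age and collection day cannot be told apart.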
